A study of Folsomia candida with 36 samples.

Results

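The genes described here are the 100 gene models of the springtail Folsomia candida whose transcript level rose most steadily with time in control animals, out of 28734 in the deposited table. They were chosen by the Pearson correlation of log2(CPM + 0.5) with time in hours over the 18 control libraries, among the 11719 gene models with a mean CPM (counts scaled by the library total) of 5 or more over all 36 libraries. The imidacloprid libraries took part only in that minimum level, so the rise of these genes was tested in the 18 imidacloprid libraries alone. Pools of 70 wild-type animals of the Berlin strain were kept on LUFA2.2, a natural soil, spiked with 0.25 mg of imidacloprid for each kg of dry soil or mixed with water alone, under 16 h of light and 8 h of dark at 20 °C. RNA of whole animals was sequenced every 12 h from 12 to 72 h, with 3 libraries for each treatment and time point and 12 groups in all. The concentration is given by the submitters as the one that lowers reproduction by 20%, and no age is stated for the animals in the labels. Total counts ran from 20280135 to 42146055 per library, and no control sampled before transfer to the soil is part of the 36 libraries, so time on soil and time of day both move along the series.

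Folsomia candida is a parthenogenetic soil hexapod that goes on moulting as an adult and alternates feeding, moulting and egg laying, so that transcripts of the whole body can shift over days without any toxicant. Imidacloprid is a neonicotinoid that acts on nicotinic acetylcholine receptors of nerve cells. The 28734 identifiers were searched in a RefSeq table of 27231 genes of this species and 0 were found there, so the genes are given by identifier and no product or role is attached to them. In whole animals, more cells of a type and more RNA per cell cannot be told apart.

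The values that chose the genes are a description. In controls the correlation with time was 0.93 for Fcan01_26995 and 0.90 for Fcan01_21096, the highest of all. It was 0.654 for Fcan01_14832, the last gene taken at rank 100, and 0.653 for Fcan01_03049, the first left out, so the limit cuts through a continuous range. The fitted slope in controls had a median of 0.42 log2 units per 24 h and ran from 0.09 to 2.33. Steadiness and steepness therefore did not go together for all of them, and some of the most regular genes changed little. When the rule was applied without each control library in turn, 68 to 94 of the 100 genes were chosen again.

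The rise was also present in the animals on imidacloprid soil. Of the 100 genes, 53 rose with time there and 0 fell (edgeR quasi-likelihood test of a straight line in time, Benjamini-Hochberg adjusted p under 0.05 over 19176 genes). Of all tested genes 2.57% were called rising, and of the 11719 eligible for the rule 2.29%. The fitted slope was positive in 97 of the 100, against 41.4% of the eligible genes, and 81 rose at an unadjusted p under 0.05, against 13.2% of all tested genes. The median slope was 0.37 log2 units per 24 h, a 1.29-fold increase per day, with quartiles at 0.20 and 0.74. Over all 19176 tested genes the median slope was 0.01. Among the fits with fewer libraries, the count of 53 moved by more than 1.5 times when irregularly titled libraries were set aside (19), or when all libraries of 24 h (27), 60 h (32) or 72 h (16) were left out, while 96 to 99 of the slopes stayed positive in those fits. Without single libraries the count ran from 38, without imidacloprid 72 h replicate 1, to 74, without imidacloprid 12 h replicate 2. The shares of all tested genes above belong to the fit of all 18 libraries and not to these fits. Set aside for their titles were imidacloprid 12 h replicate 5 and 60 h replicate 1. In that fit libraries 71 and 72, both 72 h replicate 4, were joined.

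**Figure D1:**
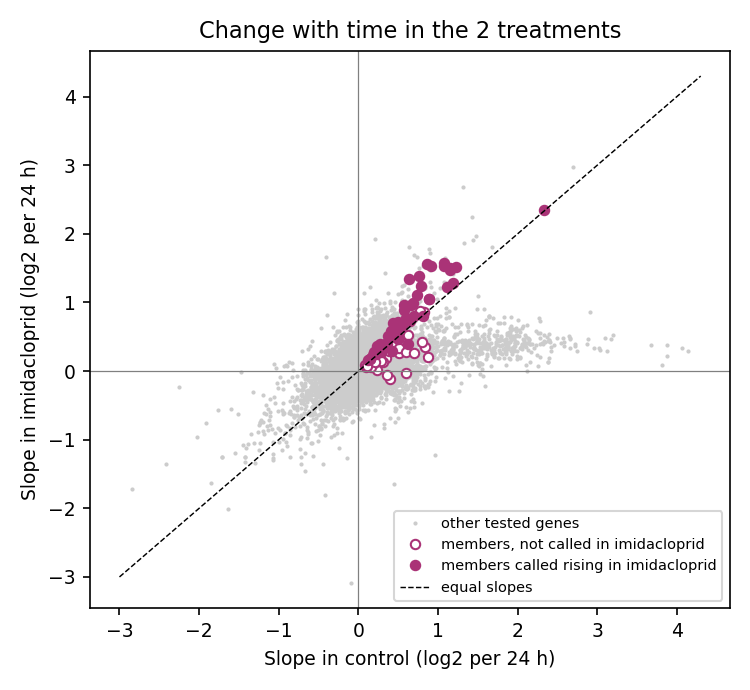
Slope of log2 expression with time, in log2 units per 24 h, in the control libraries (horizontal) and the imidacloprid libraries (vertical), each fitted to its own 18 libraries. Grey points are other tested genes, filled points the 53 members called rising in imidacloprid, open points the other members, and the dashed line marks equal slopes; 97 of the 100 lie above 0 on the vertical axis.

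The slopes formed a continuous range, described here in classes with limits at 0.5 and 1. In imidacloprid libraries 16 genes had slopes over 1 log2 unit per 24 h, and all 16 were called. A further 23 genes lay between 0.5 and 1, of which 19 were called, and 58 lay between 0 and 0.5, of which 18 were called. In the shallow class 42 of the 58 had an unadjusted p under 0.05. Between 12 and 72 h the median difference was 3.05 log2 units for the steep genes (8.29-fold), 1.47 for the middle class and 0.58 for the shallow class. The mean levels of the 16 steep genes over all libraries had a median of 22.2 CPM, against 35.2 CPM for the other members. The classes were cut on the same slope that was tested, so the shares called in them are a description. Among the 11719 eligible genes 29 had slopes over 1, 200 between 0.5 and 1, and 4628 between 0 and 0.5. How many of those were called in each class was not taken.

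Fcan01_26995 had the largest slope in imidacloprid libraries and was also the most regular in controls. With imidacloprid it stood at 1.82, 0.628 and 1.29 CPM in the 12 h libraries, at 0.902, 1.13 and 0.990 CPM at 24 h, and at 1.17, 1.58 and 2.14 CPM at 36 h. It then stood at 17.3, 13.4 and 4.75 CPM at 48 h, at 48.2, 17.6 and 8.26 CPM at 60 h, and at 48.3, 44.8 and 33.4 CPM at 72 h. Every library from 48 h on lay above every library up to 36 h. The slope was 2.35 ± 0.25 log2 units per 24 h (SE, 5.08-fold per day, edgeR adjusted p = 0.000115), and the slope in controls, which chose the gene, was 2.33 ± 0.24. In controls the gene went from 0.988 CPM ± 0.388 (SD, n = 3) at 12 h to 26.5 ± 5.56 at 72 h.

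Fcan01_25202 had the next largest slope, 1.57 ± 0.20 log2 units per 24 h (SE, 2.98-fold per day, edgeR adjusted p = 0.000483). With imidacloprid it stood at 5.79, 5.29 and 3.92 CPM at 12 h and at 187, 31.2 and 58.2 CPM at 72 h, so both sets of libraries were apart, and imidacloprid 72 h replicate 1 was the highest. Without that library the slope was 1.29. In controls this gene scattered widely, from 28.8 to 372 CPM at 72 h, and it entered the list at rank 98.

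Fcan01_21096, the second most regular gene in controls, rose by 1.29 ± 0.18 log2 units per 24 h with imidacloprid (SE, 2.44-fold per day, edgeR adjusted p = 0.000896). It stood at 127, 46.8 and 42.2 CPM at 12 h and at 928, 411 and 494 CPM at 72 h. No library at 72 h lay within the range of those at 12 h.

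**Figure D2:**
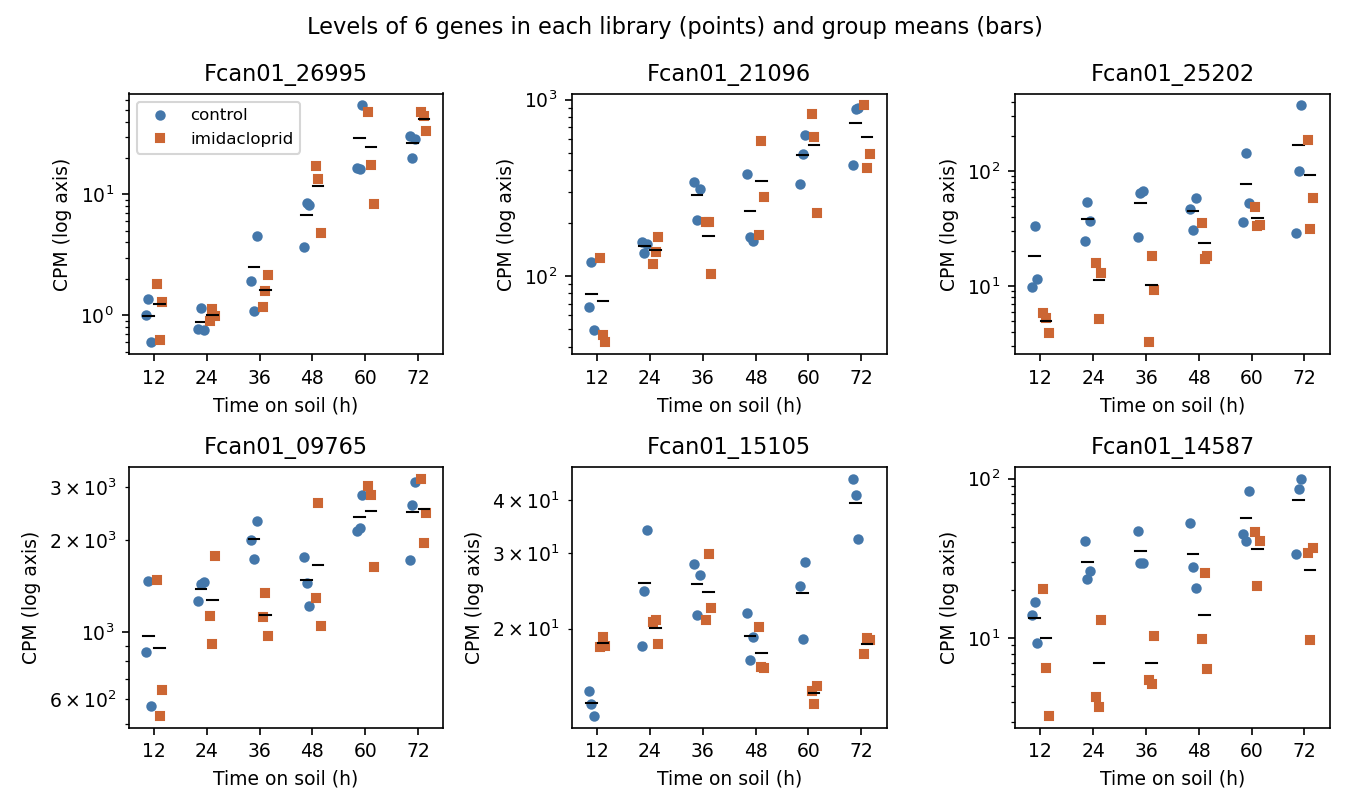
CPM of 6 members on a log axis against time on soil, with a point for each library and a bar for the mean of each group of 3 (circles, control; squares, imidacloprid). Fcan01_26995, Fcan01_21096, Fcan01_25202 and Fcan01_09765 rose in the imidacloprid libraries, Fcan01_15105 had a slope of -0.11 there, and Fcan01_14587 lay lower with imidacloprid over all time points.

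The 2 members with the highest CPM had slopes above the members' median of 0.37 and below those of the 3 genes just described. CPM is not corrected for transcript length, so it ranks reads and not molecules. Fcan01_09765 had a mean of 1666 CPM in imidacloprid libraries, where it stood at 1485, 529 and 642 CPM at 12 h and at 3189, 1962 and 2466 CPM at 72 h. Its slope was 0.63 ± 0.14 log2 units per 24 h (SE, 1.55-fold per day, edgeR adjusted p = 0.014). This call was lost with the irregularly titled libraries set aside (edgeR adjusted p = 0.122) and without the 60 h or the 72 h libraries (0.0602 and 0.147). Fcan01_27583 had a mean of 1499.6 CPM, with 1529, 835 and 487 CPM at 12 h and 2521, 1723 and 1564 CPM at 72 h, and its slope of 0.49 ± 0.15 did not pass the test (edgeR adjusted p = 0.0765). The 100 genes together took 0.727% ± 0.172 of all counts at 12 h and 1.71% ± 0.203 at 72 h with imidacloprid (SD, n = 3). In controls they took 0.761% ± 0.127 and 1.82% ± 0.135. Among the 100 gene models with the highest mean CPM, 3 were members.

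The slope in imidacloprid libraries was below 0 for 3 genes, none of which passed the test. Fcan01_15105 was the lowest, at -0.11 ± 0.08 log2 units per 24 h (SE, edgeR adjusted p = 0.41), against 0.40 ± 0.11 in the controls that chose it. With imidacloprid it stood at 18.1, 19.1 and 18.2 CPM at 12 h and at 17.4, 19.1 and 18.8 CPM at 72 h, so the ends of the series overlapped. In controls it stood at 14.3, 13.3 and 12.5 CPM at 12 h and at 44.8, 41.0 and 32.4 CPM at 72 h. Fcan01_09363 was next, at -0.06 ± 0.10 with imidacloprid (edgeR adjusted p = 0.717) and 0.36 ± 0.10 in controls. It went from 7.88 CPM ± 1.49 to 9.40 ± 2.28 (SD, n = 3) between 12 and 72 h with imidacloprid. In controls it went from 6.93 ± 0.357 to 17.5 ± 3.19 CPM.

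Applying the rule to the imidacloprid libraries gave a list that shared 37 of its 100 genes with the list from controls, where 100 genes make up 0.853% of those eligible. Both lists used the same minimum level but different libraries. The correlation with time in imidacloprid libraries was at or above 0.654, the lowest of the members in controls, for 70 of the 100 genes and for 4.41% of all eligible genes. Its median was 0.74 for the members and -0.09 for all eligible genes, over the same 18 libraries. The slope was steeper in imidacloprid than in control libraries for 60 of the 100 genes, and the median difference was 0.03 log2 units per 24 h, with a range from -0.66 to 0.71. The slope was lower in imidacloprid than in control libraries for 40 of the members, for 57 of the next 100 genes and for 6605 of the 11719 eligible genes. Because control values chose the genes, the difference in slope was not used as a test.

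Between the first and the last time point with imidacloprid, 11 of the 100 genes were higher at 72 h than at 12 h and 0 were lower (edgeR adjusted p under 0.05), against 0.125% of all tested genes called higher and 0.073% called lower. All 11 were among the 53. The difference was positive in 99 genes, against 51.8% of all tested genes, with a median of 0.88 log2 units against 0.02. At an unadjusted p under 0.05, 69 members were higher, against 6.68% of all tested genes. In 68 of the 100 genes all 3 libraries at 72 h lay above all 3 at 12 h, which held for 9.05% of all tested genes. Libraries 71 and 72 of the 72 h group both carry replicate number 4. Whether they came from different pools of animals is not known. Fcan01_26995 differed by 5.08 ± 0.66 log2 units (SE, 33.8-fold, edgeR adjusted p = 0.00494), and Fcan01_25202 by 4.20 ± 0.71 (18.4-fold, edgeR adjusted p = 0.0407). With 3 libraries at each end this count was fragile, from 0 without imidacloprid 12 h replicate 6 to 13 without imidacloprid 48 h replicate 3. It was 0 with the irregularly titled libraries set aside and 6 with only genes at 5 CPM in 3 libraries tested. It was 49 with DESeq2 and 17 without 12 h replicate 2 and 48 h replicate 5 together. The last setting was added after the data were seen. The shares of all tested genes above belong to the main edgeR fit and not to these fits. With DESeq2 99 differences were positive, with a median of 0.87 log2 units. Fcan01_26995 lost its call without 12 h replicate 6 (edgeR adjusted p = 0.0556) and with the irregularly titled libraries set aside (0.0659). Fcan01_25202 lost its call without any of the 12 h libraries, 24 h replicate 2 or 6, 60 h replicate 1, 72 h replicate 1 or library 72.

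With imidacloprid the rise was not confined to 1 interval of the series, and which step was largest depended on single libraries. Over the 6 time points in order, the mean of the 100 genes was 4.52 ± 0.34, 4.77 ± 0.11, 4.88 ± 0.20, 5.31 ± 0.38, 5.64 ± 0.40 and 5.80 ± 0.20 log2 CPM (SD, n = 3). In controls it was 4.59 ± 0.25, 4.90 ± 0.06, 5.35 ± 0.19, 5.05 ± 0.19, 5.59 ± 0.24 and 5.99 ± 0.02. The imidacloprid means were higher at each time point than at the one before, whereas the control means dropped between 36 and 48 h. The step from 36 to 48 h was 0.43 log2 units with imidacloprid, above 0.33 from 48 to 60 h and 0.25 from 12 to 24 h. Single libraries were then left out, a check added after the data were seen. Without 48 h replicate 5 it was 0.22, and the step from 48 to 60 h was then 0.54. Without 60 h replicate 5 the step from 48 to 60 h was 0.55, and without 12 h replicate 2 the step from 12 to 24 h was 0.44, each above 0.43. The step from 24 to 36 h was 0.00 without 36 h replicate 2, and the step from 60 to 72 h was -0.06 without 60 h replicate 5. From 36 to 48 h, 87 of the 100 genes had a higher mean with imidacloprid, and 23 in controls. This step was the largest of the 5 for 38 genes with imidacloprid and for 3 in controls. In controls 45 genes had their largest step between 48 and 60 h. Control values at each time point took part in choosing the genes, and no shares over other genes were taken. The difference between the treatments in these steps was not tested, so nothing is read from it.

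**Figure D3:**
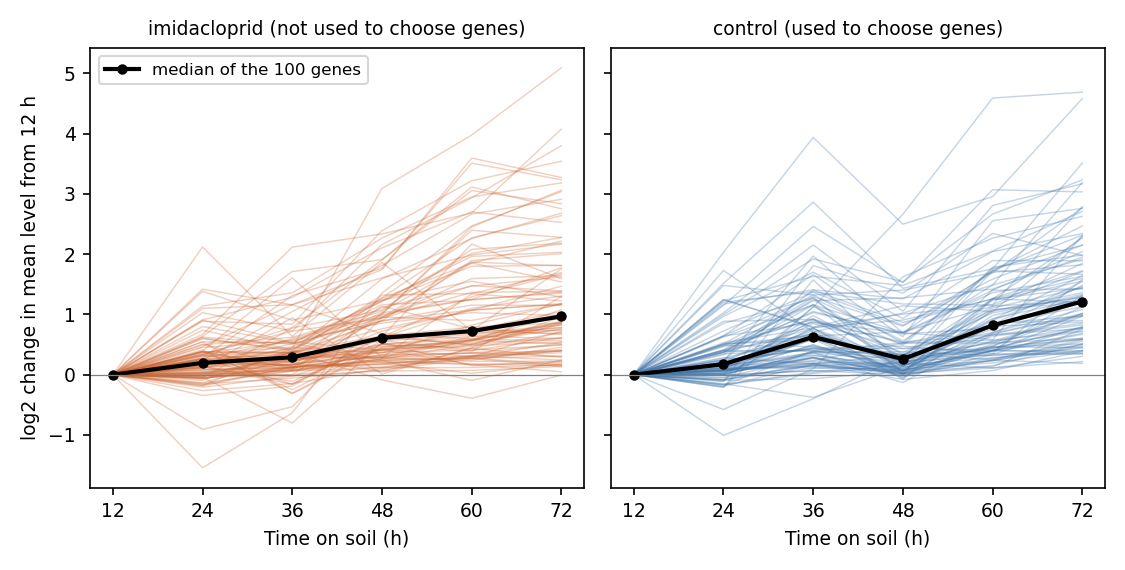
Change in the mean log2 CPM of each of the 100 genes from its value at 12 h (thin lines) and the median of the 100 (black), against time on soil, for imidacloprid (left) and control (right). With imidacloprid the median climbs to 0.29 at 36 h, 0.61 at 48 h and 0.97 at 72 h; in controls, which chose the genes, it is 0.63 at 36 h, 0.26 at 48 h and 1.21 at 72 h.

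No member was called in any of the 5 steps of 12 h with imidacloprid (edgeR adjusted p), where at most 0.0156% of all genes were called higher. Between 2 and 14 members were higher at an unadjusted p under 0.05. The share of all tested genes at that unadjusted limit was not taken, so nothing is read from these counts. DESeq2 and limma-voom were not run on the steps. The median step of the members was 0.14, 0.11, 0.37, 0.16 and 0.07 log2 units, in the order of time. Over all tested genes these medians lay between -0.03 and 0.06. In 20 of the 100 genes the mean increased at all 5 steps, which 0.913% of all genes did. In controls, which chose the genes, 4 of the 100 did so, against 0.158% of all genes.

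Departure from a straight line with imidacloprid was called for 0 of the 100 genes and for 0% of all genes (edgeR quasi-likelihood test of 4 terms), with 7 members at an unadjusted p under 0.05, against 5.27% of all tested genes. DESeq2 called 3 members among 102 genes in all, and limma-voom called 0 members. Fcan01_11010 had the smallest p among members (edgeR adjusted p = 0.854). It stood at 37.6 CPM ± 18.2 (SD, n = 3) at 12 h, went to 13.3 ± 6.55 at 24 h and 22.7 ± 2.86 at 36 h, and then to 90.7 ± 14.9, 246 ± 215 and 309 ± 147 from 48 to 72 h. Its slope was nevertheless among those called, at 1.52 ± 0.26 log2 units per 24 h (SE, edgeR adjusted p = 0.00367). Fcan01_18593 came next (edgeR adjusted p = 0.922). Its mean was 11.5 CPM ± 0.695 at 24 h and 6.38 ± 1.34 at 36 h (SD, n = 3), and it ended above both, at a mean of 13.0 CPM at 72 h. Among the 53 called genes a median of 27.5% of the log2 rise from 12 to 72 h was reached by 36 h. By then 7 genes had passed 50%, though 36 h lies before the middle of that span, so an even rise would not have reached 50%. These 53 were called on the same libraries, and no share over other genes was taken.

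Libraries of the same imidacloprid group did not stand at the same level, and the genes moved together between them. After the mean of each time point was taken away, the mean pairwise correlation of the 100 genes over the 18 imidacloprid libraries was 0.34, against 0.02 among all eligible genes. All these genes share the same libraries and scaling. Imidacloprid 12 h replicate 2 had the highest of the 3 values at that time for 71 of the 100 genes, 48 h replicate 5 for 77 and 72 h replicate 1 for 71. These libraries also had the lowest normalization factors of the imidacloprid libraries, 0.909, 0.890 and 0.916. They were the highest of 3 for 75, 70 and 73 of the 100 genes that fell most steadily in controls. Members also stood highest in 60 h replicate 3, for 71 genes, and in 36 h replicate 2, for 69. The normalization factor was 1.00 in both of these, and they were the highest of 3 for 43 and 28 of the falling genes. At the other end, 60 h replicate 5 had the lowest of 3 values for 79 members. Without 12 h replicate 2 and 48 h replicate 5 together, 75 members were called rising with imidacloprid, including all 53. In that fit 96 slopes were positive with a median of 0.39 log2 units per 24 h, against 97 and 0.37 with all 18 libraries. The fit was added after the data were seen. Its share of all genes called is not given, so the count of 75 is not further support for the rise.

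**Figure D4:**
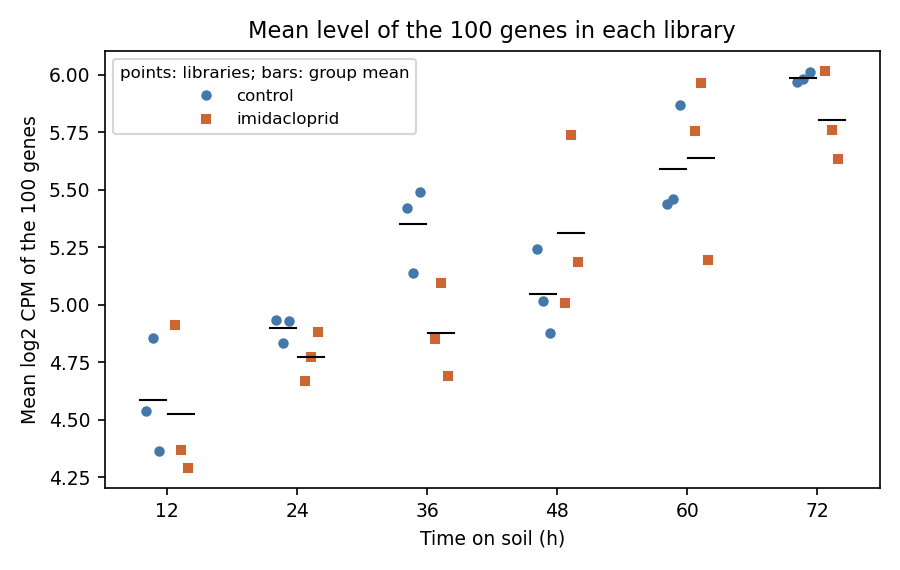
Mean log2 CPM of the 100 genes in each of the 36 libraries (points) and the mean of each group of 3 libraries (bars), against time on soil. Imidacloprid libraries ran from 4.29 to 4.91 at 12 h and from 5.63 to 6.02 at 72 h; at 36 h the control libraries all lay above the imidacloprid libraries.

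The comparison of imidacloprid with control asks whether these genes stood at another level in exposed animals. Over the 6 time points 4 of the 100 genes were lower with imidacloprid and 0 were higher (edgeR adjusted p under 0.05), where 0.138% of all tested genes were called lower and 0.168% higher. The genes were chosen for little scatter relative to their rise in controls. Scatter in controls enters the error of this fit, so these calls are a description. The median difference of the members was -0.014 log2 units, 44 genes lay higher and 56 lower. Among the 11719 eligible genes 4948 lay higher, and their median was -0.016. Without single libraries the count of members called was 3 to 5. With DESeq2 it was 7, and it was 2 with the irregularly titled libraries set aside.

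Fcan01_25202 had the largest difference of the 4, at -1.47 ± 0.30 log2 units (SE, 2.76-fold lower, edgeR adjusted p = 0.0195). At 12 h its control libraries stood at 9.82, 33.2 and 11.6 CPM, all above the exposed libraries given earlier. The groups were also apart at 24 and 36 h, and they overlapped at 48, 60 and 72 h. Its call was lost with limma-voom (adjusted p = 0.095) and with the irregularly titled libraries set aside (edgeR adjusted p = 0.0635). Fcan01_14587 was 1.37 ± 0.25 log2 units lower in exposed animals (SE, 2.58-fold, edgeR adjusted p = 0.00684). At 24 h it stood at 40.5, 23.4 and 26.4 CPM in controls and at 4.28, 3.72 and 13.1 CPM with imidacloprid, and at 36 h at 46.9, 29.5 and 29.7 against 5.48, 5.13 and 10.4 CPM. The groups did not overlap at these times, and they did at 12, 48, 60 and 72 h. Its slope with imidacloprid, 0.86 ± 0.25 log2 units per 24 h, did not pass the test (edgeR adjusted p = 0.0599).

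The remaining 2, named after their values were seen because so few genes were called, have consecutive identifiers. Fcan01_12064 was 0.85 ± 0.15 log2 units lower in exposed animals (SE, 1.81-fold, edgeR adjusted p = 0.00379) and Fcan01_12065 was 0.41 ± 0.09 lower (1.33-fold, edgeR adjusted p = 0.0244). At 24 h Fcan01_12064 stood at 130, 202 and 182 CPM in controls and at 106, 102 and 105 CPM with imidacloprid, without overlap. Fcan01_12065 stood at 59.2, 62.4 and 54.4 CPM and at 44.1, 52.4 and 40.0 CPM at that time, also without overlap. The groups were also apart at 36 h for both genes. At 12, 48 and 72 h they overlapped for both, and at 60 h for Fcan01_12065. Their slopes with imidacloprid were 0.28 ± 0.09 and 0.19 ± 0.07 log2 units per 24 h and did not pass the test (edgeR adjusted p = 0.104 and 0.126). Counts of near-identical copies can be split wrongly when reads are assigned to transcripts, and the sequences were not used here to compare this pair. In all, 8 members lay within 5 identifier numbers of another member.

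At single time points the control values are part of what chose the genes, so the differences are listed and nothing is read from them. The median difference between imidacloprid and control over the 100 genes was, in the order of time, -0.01, -0.03, -0.37, 0.26, 0.08 and -0.13 log2 units. Over all tested genes it was -0.07 at 36 h and 0.11 at 48 h. At 36 h 80 of the 100 genes lay lower with imidacloprid, and at 48 h 81 lay higher. The mean of the 100 genes at 36 h was between 5.14 and 5.49 log2 CPM in controls and between 4.69 and 5.09 with imidacloprid. A call was made for 1 member, Fcan01_15105 at 72 h, at -1.10 ± 0.19 log2 units (SE, edgeR adjusted p = 0.0174), without overlap of the libraries given above, where 0.0051% of all genes were called lower. No member was called higher at any time, where 0.0357% of all genes were at 48 h, 0.0204% at 60 h and 0.0204% at 72 h.

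The same order of genes read further down, and from its other end, gives the comparison. Of the next 100 genes, 21 were called rising with imidacloprid and 0 falling, 89 slopes were positive and the median slope was 0.23 log2 units per 24 h. Among the 100 genes that fell most steadily in controls, 48 were called falling with imidacloprid and 0 rising, 99 slopes were negative and the median was -0.33. Of all tested genes 1.12% were called falling. Across the 18812 genes tested in both treatments, the slopes in control and in imidacloprid libraries had a Pearson correlation of 0.52, over genes, which are not independent. The difference between the lists was not tested.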

How the data were processed

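RNA of whole animals was sequenced in 36 libraries, 3 for each of 2 treatments at 6 time points. Per the labels' protocols, stranded mRNA libraries were made from TRIzol extracts. Reads were trimmed with Trim Galore (0.6.7 is the version named for it and Cutadapt), quantified by Salmon 1.4.0 against transcripts and normalized by DESeq2 1.28.1. The deposited table holds the authors' estimated counts, not yet normalized and all whole (0 exceptions). Which transcriptome release was used is not stated in the labels. Nothing in the labels says how the pools of a group were made, so p-values measure the spread between libraries, which may be technical. Replicate number 4 occurs on 2 imidacloprid libraries at 72 h, library 71 and library 72. Their counts differed with a chi-square of 104.6 per degree of freedom, against 20.7 to 341.9 for the 36 pairs within groups, so both were kept. This cannot show whether they came from different pools of animals, and values with n = 3 at 72 h count them as separate libraries. The smallest count of a member in any library was 13.

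Tests used edgeR 4.0.16 in R 4.3.3, after filterByExpr (minimum count 10, minimum total 15) and TMM scaling (factors 0.890 to 1.103), with robust dispersion estimates and Benjamini-Hochberg adjustment over all tested genes at 0.05. Slopes are per 24 h. The fits of the 18 imidacloprid libraries held 19176 genes and the fit of all 36 libraries 19600. All 100 members passed the filter in both. Standard errors are the log2 value divided by the square root of the F statistic. CPM values use TMM-scaled totals, log2 CPM a prior count of 2, and the choice of members used plain column totals. Alternatives were DESeq2 1.42.0, limma-voom (limma 3.58.1), other scalings and filters, other rules for the members, left-out libraries and time points, and a replicate block. A fit without irregular titles dropped 12 h replicate 5 (title without a library number) and 60 h replicate 1 (number out of sequence), both from imidacloprid, and joined libraries 71 and 72 as 1 sample. The tests of slope, 72 h difference, departure from a line and treatment, and the choice of members, were run on simulated data. The 12 h steps were not.

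The members and lists were chosen with earlier results of these data known. Named genes are, by rule, the 2 most regular in controls, those at ranks 100 and 101, the 2 highest in CPM, the 2 largest and 2 lowest slopes with imidacloprid, the 2 largest called differences between 72 and 12 h, the 2 smallest p for departure from a line and the 2 called members furthest from control, plus called members at a single time point. Others are marked.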

Additional observations from a re-analysis of the deposited data

How the results depend on the processing

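The 53 members rising with imidacloprid became 49 to 69 with other scalings, filters, DESeq2 or limma-voom, 52 to 54 with other ways to choose members, and 38 to 74 without single libraries. They became 19 without irregular titles, 27, 32 and 16 without the 24, 60 and 72 h libraries (alternatives added after the data were seen), and 21 for the next 100 genes. Without 12, 36 or 48 h they were 48, 43 and 53. The 11 members higher at 72 h became 6 with the filter at 5 CPM, 49 with DESeq2, 0 without irregular titles, 17 without 12 h replicate 2 and 48 h replicate 5 (added after the data were seen), 1 for the next 100 genes, and 0 to 13 without single libraries. Leaving out any library other than imidacloprid 48 h replicates 3 and 5 and 60 h replicates 3 and 5 gave 7 or fewer. Departure from a line, called for 0 members, was called for 3 by DESeq2, and for 0 without single libraries (0 to 0). The 4 members differing from control became 7 with DESeq2, 2 without irregular titles and 3 to 5 without single libraries. The shares of all genes given earlier belong to the main fits and not to these alternatives. Causes were not tested.

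The replicate block, with the number of the titles as a factor, left 0 members rising (98 slopes positive, median 0.43, 72 with an unadjusted p under 0.05, 11 residual degrees of freedom against 16), 0 higher at 72 h and 2 differing from control. The number 4 occurs only at 72 h among imidacloprid libraries. Same-numbered libraries had correlations of -0.65 to 0.38 in their deviations over 18 pairs within imidacloprid and -0.27 to 0.45 over 8 pairs between treatments, so the numbers were not used as pairs.

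Among the named genes, signs turned only near 0. Over all 100 genes, the 72 h difference was negative for 1 in the main fit and for 5 without irregular titles. It was negative for 3 with the replicate block and for 0 with column totals only. Slopes were negative for 3 in the main fit, 5 without the 12 h libraries and 1 without the 24 h libraries. The slope of Fcan01_09363 was 0.0048 without 24 h and 0.012 without 60 h. The 72 h difference of Fcan01_15105, -0.01, was 0.03 with column totals only (0.028), the filter at 5 CPM (0.032) and the replicate block (0.030), and -0.031 to 0.034 without single libraries (-0.019 without 12 h replicate 2). With 3 libraries a group, the median standard error of a member was 0.11 for a slope and 0.33 for the 72 h difference, which limits what can be called.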
